A study of Homo sapiens with 8 samples.

Results

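The response of the LN229 clone Surv-GFP to temozolomide (TMZ) was measured by RNA-Seq in 4 of the 8 libraries of the study, 2 from untreated cells and 2 from cells kept for 48 h with TMZ at 50 µM. The members were chosen by their labels alone, as the TMZ-exposed and the untreated libraries of this clone. LN229 is a human glioblastoma cell line (grade IV). Surv-GFP is a stable clone of it, grown in DMEM with 10% FBS and 0.75 mg/ml G418, that carries a pcDNA3.1 plasmid with survivin fused to eGFP. The nuclear export sequence (NES) of that survivin is functional and the fusion protein lies predominantly in the cytoplasm. The other 4 libraries came from SurvNESmut-GFP, a clone whose survivin carries a mutated NES, also untreated or exposed to the same dose for the same time. Every library is therefore from cells that overexpress a survivin fusion under G418, no parental LN229 library was analysed here, and each construct is represented by a single clone. TMZ was dissolved in dimethyl sulfoxide and no solvent is given for the untreated cells, so that effects of TMZ and of its solvent cannot be told apart. Library letters a and b name the replicates of a group, and p-values measure the spread between these libraries. The study's text speaks of independent biological replicates run in technical duplicate, and since the labels do not say which of these the letters name, that spread may be technical.

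TMZ is a methylating agent used against glioblastoma. Its most toxic lesion, O6-methylguanine, is turned by mismatch repair and replication into DNA double-strand breaks, and glioblastoma cells with functional p53 answer with a cell cycle arrest, senescence or death. Activated p53 raises genes such as CDKN1A, whose product p21 inhibits cyclin-dependent kinases. Genes of mitosis are then repressed through the DREAM complex, which binds the cell cycle genes homology region (CHR) near their start sites. Survivin, encoded by BIRC5, is an inhibitor of apoptosis and a subunit of the chromosomal passenger complex.

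The Surv-GFP libraries held between 17448926 and 18580099 reads counted on genes, and all 8 libraries between 15826923 and 18861603. Replicates of a group correlated with r of at least 0.994 over log2 CPM (a gene's read count scaled to a common library size), against at most 0.986 between libraries of different groups. The counts of each replicate pair differed by more than sampling noise. The genes with the largest changes are named throughout with their CPM in libraries a and b, in that order, followed by the log2 fold change with its standard error (SE). CPM is not divided by transcript length, so levels are compared between libraries and not between genes.

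The gene carried by the plasmid was examined first. BIRC5 stood at 1152 and 1113 CPM in the untreated and 1938 and 2029 CPM in the TMZ-exposed Surv-GFP libraries, a log2 fold change of 0.81 ± 0.05 (edgeR, adjusted p = 2.1e-10). The counts cannot separate the endogenous gene from the survivin-eGFP plasmid. In SurvNESmut-GFP the same symbol went from 407 and 414 to 262 and 253 CPM, a log2 fold change of -0.67. The BIRC5 counts thus rose in Surv-GFP while most genes of its own group, described further down, fell. The study's qPCR, with primers that amplify only the endogenous gene, found BIRC5 repressed in LN229-Surv cells 48 h after TMZ.

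The neural origin of the line was checked with fixed marker genes. The progenitor markers NES, which encodes nestin (711 and 760.2 CPM untreated), SOX2 (88.8 and 92.6 CPM) and VIM (3783 and 3696 CPM) were expressed, as was S100B (798 and 756 CPM), whereas GFAP, the defining astrocyte filament, was below 1 CPM in all 4 libraries. All 6 endothelial markers, 7 of 8 immune markers and 4 of 6 epithelial markers were below 1 CPM. The immune marker above that level was CD68 (12.2 and 11.9 CPM untreated and 19.1 and 17.2 CPM upon TMZ), and PTPRC, which marks blood cells, was at 0 in each Surv-GFP library. The epithelial markers above it were KRT8 and KRT18, with KRT18 at 129 and 129.6 CPM untreated and 270.5 and 264 CPM upon TMZ.

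Upon TMZ, 8371 of 14201 genes tested changed in Surv-GFP at an adjusted p of at most 0.05, 4271 (30.1% of the genes tested) to higher and 4100 (28.9%) to lower levels. Most changes were small, as 6884 of the 8371 genes (82.2%) moved by less than 2-fold, and the median of all genes tested was 0.00 on the log2 scale. At least 2-fold changes were called for 736 genes (5.18%) to higher and 751 genes (5.29%) to lower levels. At 4-fold or more the directions parted, with 236 genes (1.66%) called higher and 92 (0.648%) called lower.

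**Figure D1:**
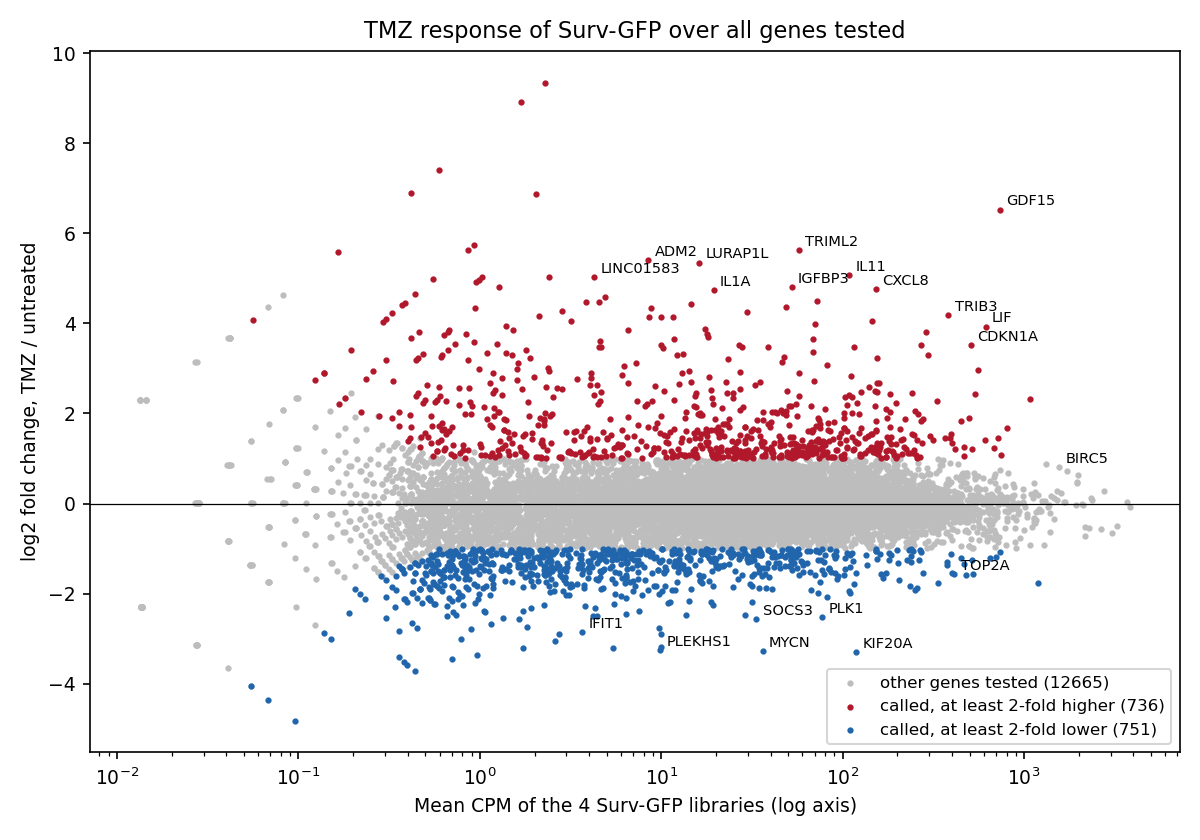
Mean CPM of the 4 Surv-GFP libraries (x axis, log scale) against the log2 fold change of TMZ-exposed over untreated cells (y axis) for the genes tested that have a count in these libraries. Red points are the 736 genes called at least 2-fold higher and blue points the 751 called at least 2-fold lower. GDF15 stands highest among the labelled genes at a log2 fold change of 6.53, and KIF20A lowest at -3.30. The genes above GDF15 have a mean under 5 CPM.

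The 12 genes with the largest rise, among genes with a mean of at least 5 CPM in the higher group and groups that did not overlap, were led by GDF15. This stress cytokine of the TGF-beta superfamily rose from 14.7 and 16.9 CPM to 1362 and 1553 CPM, a 92.2-fold change (log2 6.53 ± 0.12, adjusted p = 3.4e-16). TRIML2, a tripartite motif family member, followed from 2.49 and 2.04 to 116 and 109 CPM. ADM2, a peptide of the calcitonin family, went from 0.325 and 0.442 to 16.8 and 16.4 CPM. Several of these genes encode secreted factors. IL11 and CXCL8, a cytokine of the IL-6 family and a neutrophil chemokine, stood at 6.45 and 6.07 and at 12.0 and 9.66 CPM in untreated cells and reached 203 and 218 and 305 and 286 CPM. IGFBP3, an insulin-like growth factor binding protein, rose from 4.23 and 2.98 to 95.9 and 106 CPM and IL1A, an alarmin cytokine, from 1.25 and 1.55 to 41.6 and 33.5 CPM. RGS16, which shortens G-protein signalling, rose from 5.91 and 6.35 to 140.5 and 135 CPM. The others were LURAP1L (log2 fold change 5.35), LINC01583 (5.03), CATIP (4.59) and the metalloprotease PAPPA2 (4.48), each with less than 1 CPM in both untreated libraries.

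The 12 largest falls were smaller in size and belonged to several groups. KIF20A, a kinesin of late mitosis, fell from 211 and 219 to 21.7 and 21.9 CPM (9.88-fold, log2 -3.30 ± 0.06, adjusted p = 2.3e-16), and the mitotic kinase PLK1 from 132 and 131 to 23.1 and 22.6 CPM. PIF1, a DNA helicase, fell from 17.5 and 18.3 to 1.93 and 2.01 CPM. Both replicates of each group lay close together for these genes. MYCN, the neural MYC family transcription factor, stood at 67.7 and 63.8 CPM in untreated and 5.13 and 8.49 CPM in TMZ-exposed cells. KCNJ10, a glial potassium channel, fell from 10.2 and 9.27 to 1.02 and 1.09 CPM and the receptor gene GFRA2 from 8.07 and 6.13 to 0.856 and 1.66 CPM. The signalling genes among these falls were MAP2K6 (-2.90), a kinase upstream of p38, and SOCS3 (-2.57), an inhibitor of cytokine signalling. PLEKHS1 (-3.26), METTL7A (-2.75), PRIMA1 (-2.49), which anchors acetylcholinesterase, and the interferon-stimulated gene IFIT1 (-2.85) completed the list.

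**Figure D2:**
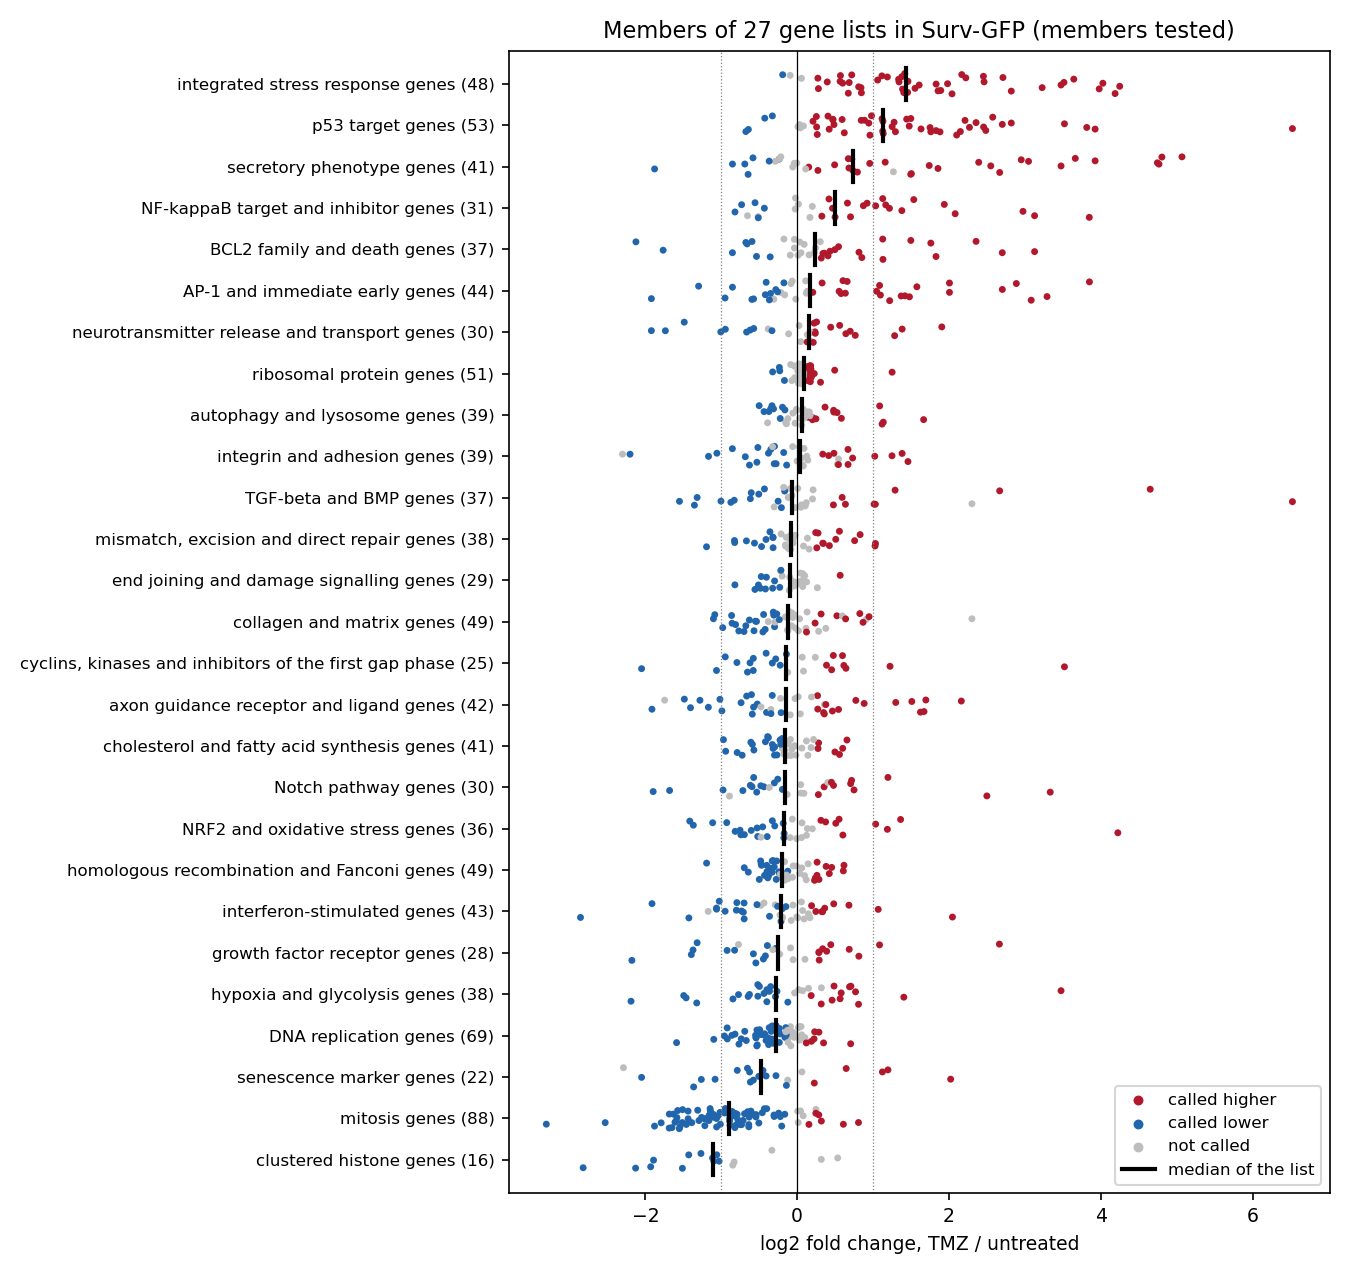
log2 fold change upon TMZ in Surv-GFP (x axis) of the tested members of 27 gene lists (y axis, number tested in brackets, ordered by median). Each point is a gene, red if called higher, blue if called lower and grey if not called, and black bars are list medians, which run from 1.43 for integrated stress response genes to -1.11 for clustered histone genes.

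Targets of p53 rose as a group. Of 53 tested, 45 rose and 4 fell, against 30.1% and 28.9% of all genes, 29 rose by at least 2-fold (5.18% of all genes did) and the median log2 fold change was 1.13, against 0.00 over all genes. CDKN1A, the p21 gene, stood at 86.6 and 77.3 CPM in untreated and 908 and 975 CPM in TMZ-exposed cells (11.5-fold, log2 3.52 ± 0.07, adjusted p = 1e-15). GADD45A, a growth arrest gene, rose from 36.3 and 40.2 to 511 and 565 CPM and BTG2, an antiproliferative gene, from 21.8 and 17.5 to 81.0 and 102 CPM. In each of them every TMZ-exposed library lay above every untreated one. The feedback inhibitors of p53 moved unequally, as MDM2, its ubiquitin ligase, rose from 111 and 127 to 444 and 432 CPM and the phosphatase gene PPM1D from 32.8 and 31.6 to 43.2 and 43.1 CPM. Among death effectors, the BH3-only genes BBC3 (3.96 and 3.81 to 24.5 and 26.2 CPM) and PMAIP1 (37.4 and 36.4 to 192 and 186 CPM), the death receptors FAS (log2 1.76) and TNFRSF10B (159.7 and 156 to 447 and 444 CPM), and BAX (1.13) rose. Among repair and nucleotide genes, RRM2B, a subunit of the p53-inducible ribonucleotide reductase, rose from 114 and 114 to 567 and 531 CPM, the damage recognition gene DDB2 by 1.48 and its partner XPC by 0.25 on the log2 scale. E2F7, a repressor of E2F targets, rose from 39.0 and 39.2 to 114 and 99.2 CPM, and SESN1, a stress inhibitor of growth signalling, by 1.30 on the log2 scale. POLH, a translesion polymerase, fell from 39.7 and 41.9 to 25.9 and 26.3 CPM, and APAF1, the apoptosome scaffold, and CMBL, a hydrolase, also fell (-0.68 and -0.43). TP53I3, a quinone oxidoreductase gene, did not pass the test (0.03 ± 0.09).

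**Figure D3:**
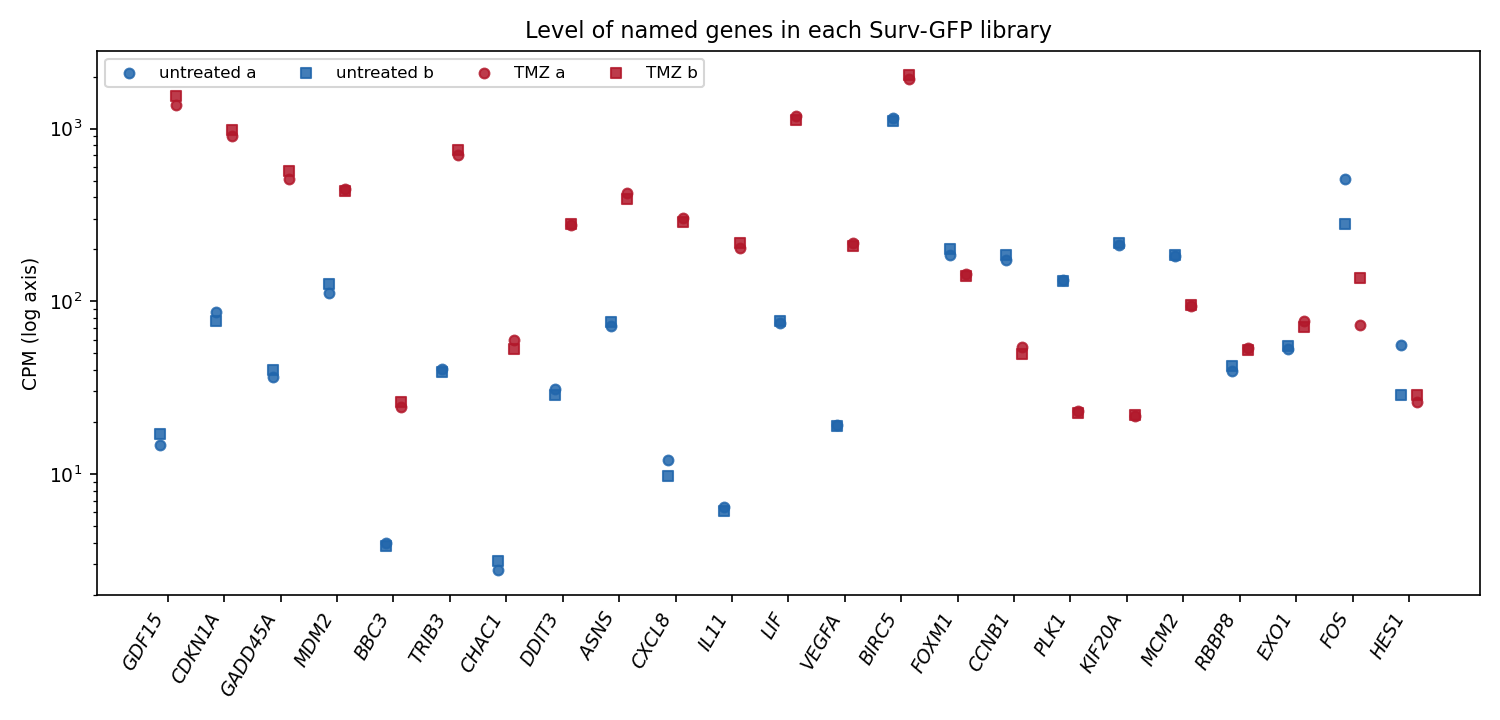
CPM (y axis, log scale) of 23 genes in each Surv-GFP library, blue for untreated and red for TMZ-exposed cells, circles for replicate a and squares for replicate b. GDF15 to VEGFA, RBBP8 and EXO1 lie higher in both TMZ-exposed libraries, CCNB1, PLK1, KIF20A and MCM2 lie lower, and the FOS and HES1 libraries of the untreated group lie apart from each other.

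Genes of mitosis fell together. Of 88 tested, 77 fell and 6 rose (87.5% and 6.82%, against 28.9% and 30.1% of all genes). By at least 2-fold 40 fell (5.29% of all genes did), and the median was -0.89. A bulk measurement cannot tell fewer cells in a phase of the cycle from less RNA per cell. CCNB1, the mitotic cyclin, fell from 174 and 186 to 54.5 and 49.4 CPM (3.46-fold, log2 -1.79 ± 0.06, adjusted p = 6.4e-13) and its partner kinase CDK1 from 101 and 107 to 59.9 and 60.1 CPM. The activators CDC25C, a phosphatase, and CDC20, a coactivator of the anaphase promoting complex, fell by 1.29 and 1.54 on the log2 scale, and AURKA, a spindle pole kinase, from 129 and 140.1 to 46.2 and 45.7 CPM. For all of them both TMZ-exposed libraries lay below both untreated ones. TOP2A, which decatenates chromosomes, went from 591 and 646 to 211 and 204 CPM, the kinetochore gene CENPF from 681 and 759.7 to 237 and 240.4 CPM and the spindle gene PSRC1 from 57.8 and 60.8 to 16.7 and 15.5 CPM. Of the other chromosomal passenger genes, AURKB (-0.95), INCENP (-1.14) and CDCA8 (-1.39) all fell. The BIRC5 counts rose, but cannot be separated from those of the plasmid. WEE1, an inhibitor of CDK1, fell by 0.54 on the log2 scale, while PKMYT1, the other CDK1 inhibitor, rose from 46.0 and 48.5 to 58.4 and 59.5 CPM. Of the transcription factors of the programme, FOXM1 was lower upon TMZ, at 184 and 200.4 CPM untreated and 145 and 140.3 CPM upon TMZ. MYBL2, at 159 and 162 and 174 and 165 CPM, did not pass the test (adjusted p = 0.23). Besides BIRC5 and PKMYT1, the members that rose were CKAP2L (0.61), a spindle protein gene, and by smaller amounts ZWILCH (0.29), SKA1 (0.25) and CENPN (0.16), all of the kinetochore and the last 3 named after their values were seen.

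The promoters of these genes were searched for the CHR. Promoters of 300 bases, from 250 before to 50 after the start of each gene (RefSeq, GRCh38.p14), were found for 72 of the 88 mitosis genes and for 11226 of the 14201 genes tested (79.1%). A CHR, written as TTTGAA or TTCGAA and counted on both strands, lay in 51 of the 72 (70.8%), in 11.5% of the promoters of genes tested and in 16.4% of all 35116 promoters of the reference. The nearest copy began between 100 bases before and 50 bases after the start in 46 of the 51. Of the 51 genes with a CHR, 46 fell, with a median of -1.05, and of the 21 without one 18 fell, with a median of -0.82. A match is a string of letters and was not tested as a binding site. The 6 mitosis genes with the largest falls that held a CHR are shown with the stretch around the copy nearest the start, the CHR in capitals, 5′ to 3′ on the strand of the gene.
PLK1 (chr16:23678848-23678877, plus strand): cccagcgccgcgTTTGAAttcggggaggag
PSRC1 (chr1:109283157-109283186, minus strand): gggcctgagagaTTCGAAaggagccccgcc
CENPA (chr2:26786026-26786055, plus strand): cggagcgagcgaTTTGAAcgcgagcggcgc
ASPM (chr1:197146765-197146794, minus strand): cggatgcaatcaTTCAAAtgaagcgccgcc
CCNF (chr16:2429350-2429379, plus strand): gggccgggtgcgTTTGAAaactggggtggg
BUB1 (chr2:110678045-110678074, minus strand): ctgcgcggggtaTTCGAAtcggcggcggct
In PLK1 and PSRC1 the motif began 29 bases and in CENPA 18 bases before the start, in ASPM it lay on the opposite strand 113 bases before it, and in BUB1 it began at base 2 of the transcribed part. The centromere histone gene CENPA fell by 1.69, the spindle pole gene ASPM by 1.65, CCNF, an adaptor of a ubiquitin ligase, by 1.63 and the checkpoint kinase gene BUB1 by 1.61 on the log2 scale.

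Genes of DNA replication fell less. Of 69 tested, 43 fell and 7 rose (62.3% and 10.1%, against 28.9% and 30.1% of all genes). By at least 2-fold 2 fell (5.29% of all genes did), and the median was -0.28. CCNA2, the cyclin of S and G2 phase, fell from 102 and 110.2 to 36.5 and 33.8 CPM (log2 -1.59 ± 0.06, adjusted p = 2e-12) and MCM6, a subunit of the replicative helicase, from 237 and 253 to 114 and 115 CPM. MCM2, of the same helicase, fell from 182 and 185 to 94.0 and 95.0 CPM and PCNA, the sliding clamp, from 317 and 328 to 177 and 164 CPM. These falls were larger than the distance between replicates. E2F1, which drives entry into S phase, fell by 0.38 on the log2 scale, the cyclins CCNE1 and CCNE2 by 0.49 and 0.55, the thymidylate synthase TYMS by 0.36, the polymerase subunit POLE by 0.37 and the helicase subunit CDC45 by 0.54. The licensing factor CDC6 went the other way, from 74.2 and 82.4 to 134 and 121 CPM (log2 0.71 ± 0.06, adjusted p = 7.5e-08), and ORC5 and GINS4, of the origin and helicase complexes, rose by 0.35 and 0.29. CDC25A (0.04) and RRM1 (-0.04) did not pass the test, and RRM2, the small subunit of ribonucleotide reductase, fell by 0.23.

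An E2F site, written as TTTGGCGC, TTTCGCGC or TTTGGCGG on both strands, lay in 20 of 59 replication gene promoters (33.9%) and in 3.1% of the promoters of genes tested, against 1.79% of all promoters. The CHR was found in 6.78% of the replication promoters and the E2F site in 11.1% of the mitosis promoters. Of the 20 replication genes with an E2F site 13 fell, with a median of -0.23, and of the 39 without one 23 fell, with a median of -0.31. The 3 members with the largest falls that held the site are shown, with the site in capitals.
MCM6 (chr2:135876511-135876540, minus strand): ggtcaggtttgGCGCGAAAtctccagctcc
MCM2 (chr3:127598402-127598431, plus strand): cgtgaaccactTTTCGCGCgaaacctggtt
MCM3 (chr6:52284728-52284757, minus strand): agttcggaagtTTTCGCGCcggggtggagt
The site began 86 bases before the start in MCM6, which held 4 copies, 4 bases before it in MCM3 and at base 3 of the transcribed part in MCM2, and MCM3, of the same helicase, fell by 0.74 on the log2 scale.

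Genes of homologous recombination and the Fanconi pathway, which repair double-strand breaks and crosslinks, moved by small amounts. Of 49 tested, 25 fell and 10 rose (51% and 20.4%, against 28.9% and 30.1% of all genes), with a median of -0.20. The meiotic recombinase DMC1 was the only one to move by at least 2-fold (1.25 and 1.05 to 0.481 and 0.517 CPM, named after its values were seen). EXO1, a nuclease of end resection, rose from 52.7 and 55.2 to 76.7 and 71.1 CPM (log2 0.45 ± 0.07, adjusted p = 2.8e-05). RBBP8, which encodes the resection factor CtIP, rose from 39.3 and 42.2 to 53.7 and 52.4 CPM and RAD51C, a recombination mediator, from 30.5 and 29.3 to 42.7 and 48.5 CPM. Both TMZ-exposed libraries lay above both untreated ones for these 3 genes. BRCA2, a mediator of strand exchange, rose by 0.26, a call that was lost without untreated replicate a (adjusted p = 0.13) or TMZ-exposed replicate b (adjusted p = 0.2) and with DESeq2 (adjusted p = 0.055). BRCA1 (-0.01), FANCI (-0.05) and the end-joining polymerase gene POLQ (0.06) did not pass. FANCD2 (-0.14) did not pass either, but did without untreated replicate a (adjusted p = 0.0081), with a minimum of 1 CPM (0.039) or no filter on low counts (0.035), and with the Surv-GFP libraries alone and the replicate block (0.033). RAD54L and RAD51AP1, cofactors of strand exchange, fell by 0.27 and 0.33 (RAD54L not without untreated replicate b, adjusted p = 0.075), FANCA by 0.50 and the dissolvasome subunits RMI1 and RMI2 by 0.64 and 0.70 on the log2 scale. NBN, of the break sensor complex, lay at 77.5 and 79.7 and 73.3 and 71.0 CPM with an adjusted p of 0.049 that passed 0.05 in none of the fits without a Surv-GFP library (0.089 to 0.23), nor with the replicate block (0.065) or DESeq2 (0.096).

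The other repair groups were mixed. Of 38 mismatch, excision and direct repair genes tested, 12 rose and 11 fell (31.6% and 28.9%), shares near those of all genes tested (30.1% and 28.9%), with a median of -0.08. MGMT, which removes O6-methyl groups, had too few reads to be tested. MSH6, a subunit of the mismatch sensor that acts on TMZ lesions, fell from 162 and 164 to 92.1 and 92.3 CPM. In base excision, POLB, the gap-filling polymerase, rose from 14.7 and 13.8 to 25.7 and 22.4 CPM, the uracil glycosylase UNG fell from 66.1 and 67.2 to 28.7 and 29.6 CPM and MPG, the glycosylase for methylated purines, did not pass (-0.12 ± 0.08). PARP1, the break sensor, fell from 417 and 433 to 241 and 239 CPM. ALKBH3, which reverses alkylation of bases, and APTX, which repairs blocked ends, rose by 1.03 and 1.03 on the log2 scale, and TDG, a thymine glycosylase, by 0.83. Of 29 end joining and damage signalling genes, 11 fell and 1 rose (37.9% and 3.45%), with a median of -0.10. The riser was LIG4 (19.6 and 21.0 to 30.1 and 30.1 CPM), the ligase of end joining, and XRCC5 and PRKDC, its upstream factors, fell by 0.47 and 0.30. H2AFX, the histone that marks breaks, fell from 160.1 and 160.2 to 89.8 and 91.7 CPM, the checkpoint kinases CHEK1 and CHEK2 by 0.42 and 0.51, and ATM (-0.04), ATR (-0.08) and TP53BP1 (0.08) did not pass.

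Genes of the integrated stress response had the highest median of the 27 lists, 1.43. In this response kinases such as PERK and GCN2 phosphorylate eIF2alpha and the transcription factor ATF4 raises genes of amino acid supply and stress. Of 48 tested, 45 rose and 1 fell (93.75% and 2.08%, against 30.1% and 28.9% of all genes). By at least 2-fold 33 rose, as did 5.18% of all genes. ATF4 rose from 254 and 247 to 459.6 and 443 CPM (log2 0.85 ± 0.05, adjusted p = 6.5e-10). Its target transcription factors rose further, DDIT3, the CHOP gene, from 30.9 and 28.6 to 277 and 281 CPM and ATF3 from 11.2 and 9.05 to 116 and 138 CPM. TRIB3, a pseudokinase, rose from 40.6 and 38.8 to 702 and 748 CPM (18.2-fold, log2 4.19 ± 0.06, adjusted p = 2.8e-17) and CHAC1, which degrades glutathione, from 2.76 and 3.15 to 59.5 and 53.1 CPM. These rises were many times the distance between replicates. PPP1R15A, the GADD34 gene that ends the response by dephosphorylating eIF2alpha, rose from 45.2 and 42.1 to 505 and 493 CPM. Among enzymes, ASNS, asparagine synthetase, rose from 71.8 and 75.9 to 422 and 392 CPM, the mitochondrial folate enzyme MTHFD2 from 101 and 109 to 428 and 401 CPM, and the serine enzymes PSAT1 and PHGDH by 1.38 and 0.69 on the log2 scale. SLC7A11, the cystine transporter, rose by 1.19, the transcription factor CEBPB from 131 and 115 to 203 and 238 CPM, STC2, a secreted glycoprotein, from 7.64 and 9.05 to 136 and 127 CPM, and DDIT4, an inhibitor of mTORC1, by 0.57. Of the endoplasmic reticulum chaperones, HSPA5 rose from 1338 and 1266 to 2209 and 2079.9 CPM, while PDIA4, a disulfide isomerase, fell by 0.19, a call that was lost in each fit without a Surv-GFP library (adjusted p from 0.052 to 0.11).

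The CARE, the site of ATF4 and C/EBP factors written as TGATGNAA on both strands, lay in 9 of 40 promoters of this group (22.5%), in 1.75% of the promoters of genes tested and in 3.62% of all promoters. All 9 genes rose, with a median of 1.61, and of the 31 without it 28 rose, with a median of 1.06. The 6 members with the largest rises that held one are shown, with the CARE in capitals and read on the opposite strand in CHAC1, SLC3A2, HERPUD1 and MARS.
CHAC1 (chr15:40953251-40953280, plus strand): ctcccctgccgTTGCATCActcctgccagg
ATF3 (chr1:212565205-212565234, plus strand): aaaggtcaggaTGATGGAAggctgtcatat
ASNS (chr7:97872458-97872487, minus strand): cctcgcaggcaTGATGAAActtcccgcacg
SLC3A2 (chr11:62881719-62881748, plus strand): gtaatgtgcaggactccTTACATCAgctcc
HERPUD1 (chr16:56931955-56931984, plus strand): gacgcggcgggTTGCATCAgcccgtgccca
MARS (chr12:57488053-57488082, plus strand): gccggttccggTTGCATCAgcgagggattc
The motif began before the start in all but SLC3A2, where it began at base 38 of the transcribed part. SLC3A2, the heavy chain of amino acid transporters, rose by 1.89, HERPUD1, of endoplasmic reticulum degradation, by 1.61 and MARS, a methionyl-tRNA synthetase, by 1.45 on the log2 scale.

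**Figure D4:**
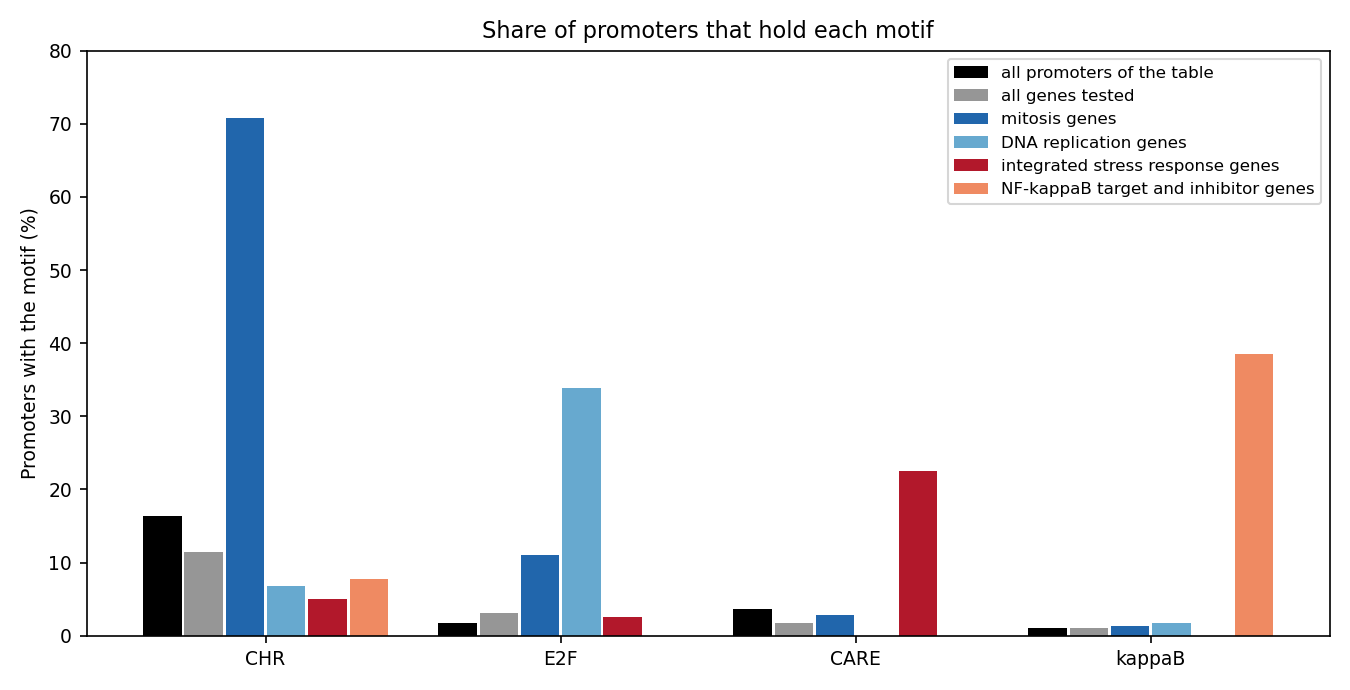
Share of promoters (y axis, percent) that hold a CHR, E2F, CARE or kappaB motif, on both strands, among all 35116 promoters of the reference, the genes tested and 4 gene lists. The CHR bar stands at 70.8% for mitosis genes and the E2F bar at 33.9% for DNA replication genes.

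Genes of NF-kappaB signalling and of the secretory phenotype rose in part. NF-kappaB dimers drive inflammatory genes and their own inhibitors. Of 31 NF-kappaB targets and inhibitors tested, 19 rose and 5 fell (61.3% and 16.1%, against 30.1% and 28.9% of all genes). By at least 2-fold 11 rose, as did 5.18% of all genes, and the median was 0.50. Among the subunits, RELB rose from 10.7 and 9.99 to 41.3 and 46.3 CPM, NFKB2 from 41.6 and 39.6 to 94.0 and 88.2 CPM, NFKB1 from 76.7 and 77.0 to 148 and 143 CPM and RELA by 0.50 on the log2 scale. BIRC3, the cIAP2 gene and an inhibitor of apoptosis, rose from 1.63 and 1.32 to 14.2 and 11.7 CPM (log2 3.13 ± 0.17, adjusted p = 1.9e-10). Of the inhibitors, TNFAIP3, the A20 gene, rose from 8.996 and 7.89 to 26.3 and 22.7 CPM, while NFKBIA, the IkappaB-alpha gene, stood at 23.5 and 20.9 CPM untreated and 26.5 and 29.2 CPM upon TMZ and lost its call without untreated replicate b (adjusted p = 0.074) or TMZ-exposed replicate b (adjusted p = 0.098). The adaptor TRAF1 rose by 1.94, SOD2, the mitochondrial superoxide dismutase, by 1.03 and the adhesion gene ICAM1 by 0.42. CSF1, a macrophage growth factor, fell from 31.2 and 26.7 to 16.1 and 16.7 CPM, and CD83 and the atypical inhibitor gene BCL3 by 0.73 and 0.55 on the log2 scale.

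The kappaB motif, the site of NF-kappaB dimers, was also searched on both strands and lay in 10 of 26 promoters of this group (38.5%), in 1.03% of the promoters of genes tested and in 0.997% of all promoters. Of the 10 genes with it 7 rose and 1 fell, with a median of 0.81, and of the 16 without it 9 rose and 3 fell, with a median of 0.44. The 4 members with the largest rises that held one are shown, with the motif in capitals.
TNFAIP3 (chr6:137867182-137867211, plus strand): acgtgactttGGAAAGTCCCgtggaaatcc
PTX3 (chr3:157436744-157436773, plus strand): ccaaattcagGGGAACTCCCgttaccgcag
NFKB1 (chr4:102501300-102501329, plus strand): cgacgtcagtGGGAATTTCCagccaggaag
REL (chr2:60881518-60881547, plus strand): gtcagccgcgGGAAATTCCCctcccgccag
All 4 began before the start. PTX3, a secreted pentraxin, rose by 1.38 and the subunit gene REL by 0.70 on the log2 scale.

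Of 41 secretory phenotype genes tested, 26 rose and 7 fell (63.4% and 17.1%, against 30.1% and 28.9% of all genes). By at least 2-fold 17 rose, as did 5.18% of all genes, and the median was 0.73. Besides IL11, CXCL8, IL1A and IGFBP3, LIF, an IL-6 family cytokine that is also a p53 target, rose from 74.5 and 77.2 to 1180.1 and 1127 CPM (15.2-fold, log2 3.93 ± 0.07, adjusted p = 2.3e-16). VEGFA, the angiogenic factor, rose from 19.2 and 18.99 to 217 and 209 CPM and INHBA, the activin A subunit, from 43.6 and 40.7 to 253 and 284 CPM. The chemokine CXCL1 went from 15.8 and 13.6 to 56.7 and 49.5 CPM and the EGF family ligands HBEGF from 3.69 and 3.70 to 10.6 and 10.4 CPM and EREG from 0 and 0.110 to 0.535 and 1.03 CPM. For each of these genes both TMZ-exposed libraries lay above both untreated ones. IL6 stood at 0.271 and 0.110 CPM untreated and 0.267 and 0.689 CPM upon TMZ and did not pass the test (adjusted p = 0.12, but 0.042 without TMZ-exposed replicate a), nor did CCL2 (-0.04) and PLAU (-0.29). IL1B stood at 0.0542 and 0.221 and 0.642 and 0.861 CPM, a call that was lost without untreated replicate a (adjusted p = 0.061). IGFBP5 fell from 407 and 396 to 101 and 118 CPM, IGFBP4 by 0.85 and the metalloproteinase inhibitor TIMP2 from 879.9 and 855 to 536 and 540.3 CPM. Of the 56 genes of the list, 15 were too low to be tested, among them CXCL10, MMP1 and MMP3.

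The list of senescence marker genes mixes genes that are lost in senescent cells with genes that are not. Neither its median of -0.48 nor its counts therefore give a direction of senescence. Of 22 tested, 14 fell and 5 rose (63.6% and 22.7%, against 28.9% and 30.1% of all genes). LMNB1, the nuclear lamina gene whose loss marks senescent cells, fell from 194 and 201 to 74.4 and 78.9 CPM (log2 -1.36 ± 0.06, adjusted p = 3.7e-12). HMGB2 and HMGB1, chromatin proteins lost in senescence, fell from 354 and 378 to 173 and 174 CPM and from 292 and 300.1 to 195 and 189 CPM. Several members of this list are also higher in dividing cells. GLB1, the senescence-associated galactosidase, fell from 95.4 and 88.1 to 75.4 and 75.9 CPM, and the inhibitors CDKN2A, CDKN2B and CDKN2C had too few reads to be tested. HMGA2 and HMGA1, chromatin proteins of senescent foci, rose from 13.9 and 14.7 to 59.2 and 56.8 CPM and by 0.65, and BHLHE40, a transcription factor, by 1.12 on the log2 scale.

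The regulators of the first gap phase were mixed, with a median of -0.14. Of 25 tested, 8 rose and 13 fell (32% and 52%, against 30.1% and 28.9% of all genes). CCND1, cyclin D1, rose from 382 and 381 to 604 and 565 CPM, whereas its kinases CDK4 (0.07) and CDK6 (0.08) did not pass. CDKN1C, the p57 inhibitor, fell from 10.5 and 8.83 to 2.25 and 2.41 CPM, opposite to CDKN1A, and SKP2, which targets inhibitors for degradation, from 45.2 and 49.1 to 22.6 and 22.5 CPM. LIN37, a subunit of the DREAM complex, rose by 1.22 and RBL2, its pocket protein p130, fell by 0.65 on the log2 scale.

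Of 37 BCL2 family and cell death genes, 17 rose and 8 fell (45.9% and 21.6%, against 30.1% and 28.9% of all genes). By at least 2-fold 8 rose and 2 fell, as did 5.18% and 5.29% of all genes, and the median was 0.24. Besides BBC3, PMAIP1 and BAX, the effector BAK1 rose from 18.3 and 16.3 to 31.0 and 30.02 CPM. On the side of survival, BCL2L1, the BCL-XL gene, rose by 0.43 and XIAP, an inhibitor of caspases, by 0.41, BCL2 fell from 16.6 and 16.5 to 10.7 and 10.3 CPM, and MCL1 did not pass (-0.09 ± 0.08) except without untreated replicate b (adjusted p = 0.011). The BH3-only genes did not move one way, as BCL2L11, the BIM gene, fell from 53.4 and 53.4 to 27.3 and 31.9 CPM and BMF from 9.48 and 7.67 to 2.30 and 2.76 CPM. Of the caspases, CASP8 rose by 0.36, and CASP9 (0.24, adjusted p = 0.051) did not pass, although it did with the Surv-GFP libraries alone (adjusted p = 0.049) and with the edgeR 4 form of the test (0.0498).

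Among AP-1 and immediate early genes, which answer growth factors within minutes, some differed widely between replicates. Of 44 tested, 22 rose and 13 fell (50% and 29.5%, against 30.1% and 28.9% of all genes). By at least 2-fold 15 rose, as did 5.18% of all genes, and the median was 0.17. FOS stood at 512 and 279 CPM in the untreated and 72.6 and 137 CPM in the TMZ-exposed libraries (log2 -1.92 ± 0.28, adjusted p = 2e-05), and JUN at 414 and 294 and 496 and 581 CPM. EGR1 lay at 1504 and 1100.4 CPM untreated and 771 and 1177 CPM upon TMZ, and its groups overlapped. Its call was lost without untreated replicate a (adjusted p = 0.49) or TMZ-exposed replicate a (adjusted p = 0.52) and with DESeq2 (adjusted p = 0.28). In the untreated group replicate a was the higher library for FOS, JUN, JUNB (284 and 180.0 CPM), EGR1 and SPRY4 (588 and 479 CPM). FOSL1, the FRA-1 gene, rose from 94.9 and 99.3 to 277 and 265 CPM, MAFF from 41.4 and 40.7 to 106 and 106 CPM and MYC from 5.37 and 5.85 to 16.8 and 16.6 CPM. NR4A3, an orphan nuclear receptor, rose from 1.03 and 0.662 to 11.8 and 12.9 CPM. The MAP kinase phosphatases differed, with DUSP5 rising from 19.9 and 14.4 to 134 and 157 CPM, DUSP10 by 3.29 and DUSP4 by 0.66 on the log2 scale, and DUSP6 (-0.08) not passing. DUSP1 (0.12) passed only without untreated replicate a (adjusted p = 0.015).

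Clustered histone genes had the lowest median, -1.11, over the 16 of 34 members with enough reads. Of the 16, 11 fell, all by at least 2-fold, and none rose. Of all genes 28.9% fell, 5.29% by at least 2-fold, and 30.1% rose. HIST1H1C, a linker histone, fell from 10.6 and 11.5 to 3.37 and 4.42 CPM (log2 -1.51 ± 0.15, adjusted p = 2.4e-07), and HIST2H2BE from 10.5 and 9.93 to 4.49 and 5.34 CPM. The median was -1.53 without TMZ-exposed replicate b, the higher TMZ-exposed library for most of these genes, and 9 of the 16 stayed under 1 CPM in all 4 libraries. Most histone mRNAs lack a poly(A) tail and the genes are near-identical copies, so that reads may be split between them.

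Interferon-stimulated genes were lower on balance, with a median of -0.21. Of 43 tested, 19 fell and 9 rose (44.2% and 20.9%, against 28.9% and 30.1% of all genes). IFIT1 and IFIT2, which bind foreign RNA, fell, IFIT2 from 19.3 and 16.8 to 3.90 and 5.74 CPM, and OAS1, which activates RNase L, from 5.58 and 6.35 to 3.10 and 3.79 CPM. TMEM173, the STING gene, fell from 20.8 and 18.7 to 12.5 and 11.8 CPM. TRIM22, an antiviral gene that p53 also raises, rose from 19.5 and 18.6 to 79.8 and 77.4 CPM, and IRF7, a driver of interferon genes, by 1.07 on the log2 scale. HLA-B, which shares reads with its near-identical relatives, rose by 0.36, and ISG15, a ubiquitin-like protein, stood at 3.90 and 5.57 CPM untreated and 4.38 and 3.33 CPM upon TMZ.

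Of 41 cholesterol and fatty acid synthesis genes, 18 fell and 6 rose (43.9% and 14.6%, against 28.9% and 30.1% of all genes). None moved by 2-fold and the median was -0.16. FASN, fatty acid synthase, fell from 2695 and 2704 to 1613 and 1655 CPM and the desaturase gene FADS2 by 0.97, while NPC1, which exports cholesterol from lysosomes, rose by 0.66 on the log2 scale. Of 38 hypoxia and glycolysis genes, 21 fell and 12 rose (55.3% and 31.6%), with a median of -0.28. The glycolytic enzymes LDHA (1133 and 1170.2 to 663 and 618 CPM), PGK1 (-0.52) and GAPDH (-0.50) fell, as did PDK4 (-2.19), a brake on pyruvate oxidation, and the glucose transporter SLC2A1 rose from 92.6 and 98.7 to 164 and 162 CPM. VEGFA, counted in this list too, was its largest rise.

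Of 36 NRF2 and oxidative stress genes, 18 fell and 9 rose (50% and 25%), with a median of -0.17. NQO1, a quinone reductase and standard NRF2 target, fell from 932 and 904 to 544 and 546 CPM, and the metallothioneins MT2A, MT1E and MT1X by 1.11, 1.37 and 1.41 on the log2 scale, the last 2 being near-identical copies whose reads may be shared. NFE2L2, the NRF2 gene, did not pass (0.06), and GCLM and SRXN1 rose by 0.51 and 0.55. Of 39 autophagy and lysosome genes, 13 rose and 9 fell (33.3% and 23.1%, against 30.1% and 28.9% of all genes), with a median of 0.07. SQSTM1, the p62 receptor, rose from 385 and 386 to 1244 and 1205 CPM and MAP1LC3B, the LC3B gene, from 91.0 and 93.2 to 199.9 and 205 CPM, and the lysosomal genes LAMP1 (-0.06) and CTSD (0.03) did not pass. Of 51 ribosomal protein genes, 23 rose and 4 fell (45.1% and 7.84%), with a median of 0.09. RPS27L, a p53-inducible paralog, rose from 89.6 and 88.2 to 211 and 213 CPM and was the only member of that list called at least 2-fold changed. Genes of ribosomal proteins have many processed copies that may share their reads.

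Receptors and ligands of the cell surface changed in both directions. Of 28 growth factor receptors, 10 rose and 12 fell, with a median of -0.26, against 30.1% higher and 28.9% lower among all genes. TNFRSF12A, the TWEAK receptor, rose from 42.5 and 44.3 to 273 and 278 CPM, the HGF receptor MET from 121 and 123 to 264 and 255 CPM and the receptor kinase AXL by 0.69, whereas PDGFRA fell from 52.6 and 50.9 to 10.4 and 12.6 CPM, FGFR3 by 1.39 and ERBB3 from 1035 and 1047 to 521 and 577 CPM. EGFR rose by 0.29, a call that was lost without untreated replicate a (adjusted p = 0.11) or TMZ-exposed replicate b (adjusted p = 0.13). Of 30 Notch pathway genes, 10 rose and 13 fell (33.3% and 43.3%), with a median of -0.16. The ligand JAG1 rose from 49.6 and 41.3 to 268 and 246 CPM, the receptor NOTCH1 fell by 0.59 and NOTCH3 rose by 1.20, and of the targets HEY2 fell from 22.5 and 23.3 to 5.78 and 6.54 CPM and HEY1 rose from 27.6 and 28.8 to 40.5 and 36.6 CPM. The target HES1 stood at 55.7 and 28.5 CPM untreated and 26.2 and 28.8 CPM upon TMZ, so that its fall rested on untreated replicate a, without which the log2 fold change was -0.05 (adjusted p = 0.77), and its call was also lost without TMZ-exposed replicate a (0.091) and with DESeq2 (0.12). Of 37 TGF-beta and BMP genes, 9 rose and 13 fell (24.3% and 35.1%, again near the shares of all genes), with a median of -0.07, and FST, which binds activin, rose from 64.7 and 49.2 to 116 and 116 CPM, while the decoy receptor BAMBI fell from 294 and 281 to 112 and 119 CPM and TGFBR3, a coreceptor, by 1.35. GDF15 and INHBA, named above, belong to this family too.

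Of 42 axon guidance genes, 15 rose and 17 fell (35.7% and 40.5%, against 30.1% and 28.9% of all genes), with a median of -0.15. The netrin receptor UNC5B, also a p53 target, rose from 0.434 and 0.221 to 1.66 and 1.32 CPM. EPHA2, an ephrin receptor, rose from 128 and 129.6 to 358 and 377 CPM, EFNB2, a ligand of its family, from 47.4 and 49.2 to 156 and 152 CPM and the repellent SLIT2 from 13.9 and 13.5 to 45.2 and 43.4 CPM. SEMA5A, a membrane semaphorin, fell from 108 and 104 to 26.1 and 30.2 CPM and EPHB3 from 118 and 108 to 35.0 and 45.9 CPM. Of 39 integrin and adhesion genes, 11 rose and 15 fell (28.2% and 38.5%). Their median of 0.03 changed sign between settings (-0.03 at the lowest). The rises were led by TENM1 (1.46), the poliovirus receptor PVR (1.38) and ITGB8 (259.9 and 289 to 671 and 635 CPM). The falls included the protocadherin PCDH18 (-2.20) and NRCAM (-1.17). Of 49 collagen and matrix genes, 21 fell and 8 rose (42.9% and 16.3%), with a median of -0.13. Laminin LAMA5 (-1.09) and NID1 (-0.98), of the basement membrane, fell, while THBS2 and TNC, matrix glycoproteins, rose from 923 and 951 to 1679 and 1741 CPM and from 1554 and 1559 to 2386 and 2462 CPM, and FN1, fibronectin, did not pass (0.03 ± 0.07). Of 30 neurotransmitter release and transport genes, 14 rose and 9 fell (46.7% and 30%), with a median of 0.16. SYT1, the calcium sensor of vesicle fusion, rose from 43.5 and 42.2 to 162 and 159 CPM, STX1A, of the fusion machinery, from 18.6 and 21.5 to 56.7 and 47.6 CPM and the glycine transporter SLC6A9 by 1.28, and SNAP25, also of that machinery, and the glutamate transporter SLC1A1 fell by 1.01 and 1.74 on the log2 scale.

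Markers of the neural lineages were lower on balance, where 28.9% of all genes tested fell and 30.1% rose. Of the 8 progenitor markers tested 7 fell and none rose, among them SOX2 (88.8 and 92.6 to 54.3 and 54.5 CPM), OLIG2 (35.2 and 32.7 to 17.4 and 17.2 CPM) and FABP7 (188 and 162 to 39.8 and 48.6 CPM). S100B, of astrocytes, fell from 798 and 756 to 248 and 279 CPM. Of 4 astrocyte markers tested 3 fell and GJA1, a gap junction gene, rose, and the sum over the list went from 866 and 823 CPM to 311 and 345 CPM. Of 5 neuron markers tested 3 fell (sum 459.9 and 439 to 229.6 and 247 CPM), while GFAP and RBFOX3 were below 1 CPM throughout. These sums rest mainly on S100B and on TUBB3 and MAP2. The sum of the epithelial markers went from 157 and 156 to 312 and 306 CPM through KRT8 and KRT18 alone, with EPCAM and CDH1 below 1 CPM. Whether these shifts touch the other lists was not tested.

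The response of Surv-GFP was compared with that of SurvNESmut-GFP by the difference of both TMZ effects in the same fit. Each construct being a single clone, effects of the NES and of the clone cannot be told apart. The comparison also rests on the TMZ-exposed SurvNESmut-GFP pair, whose replicates differed most. The log2 fold change was larger (more positive) in Surv-GFP for 2871 genes (20.2% of the genes tested) and smaller for 2355 (16.6%). The groups that rose in Surv-GFP mostly rose more than in the other clone. Of 48 integrated stress response genes 37 had a larger and 2 a smaller log2 fold change (median 1.43 for Surv-GFP against 0.96 for SurvNESmut-GFP), and of 53 p53 targets 28 had a larger and 4 a smaller one (medians 1.13 and 0.67). Of 41 secretory phenotype genes 22 were larger and 4 smaller (medians 0.73 and 0.25), and of 31 NF-kappaB genes 16 were larger and 5 smaller (medians 0.50 and 0.04). Mitosis genes mostly fell further in Surv-GFP, as 56 of 88 mitosis genes were smaller and 6 larger (medians -0.89 and -0.58). In replication genes 42 of 69 were smaller and 3 larger, with medians on opposite sides of 0 (-0.28 and 0.05), and in recombination and Fanconi genes 26 of 49 were smaller and 1 larger (-0.20 and 0.16). Histone genes differed in 1 of 16 (medians -1.11 and -0.90), and cholesterol and fatty acid genes went the other way, with 14 of 41 larger, 6 smaller and medians of -0.16 and -0.38.

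**Figure D5:**
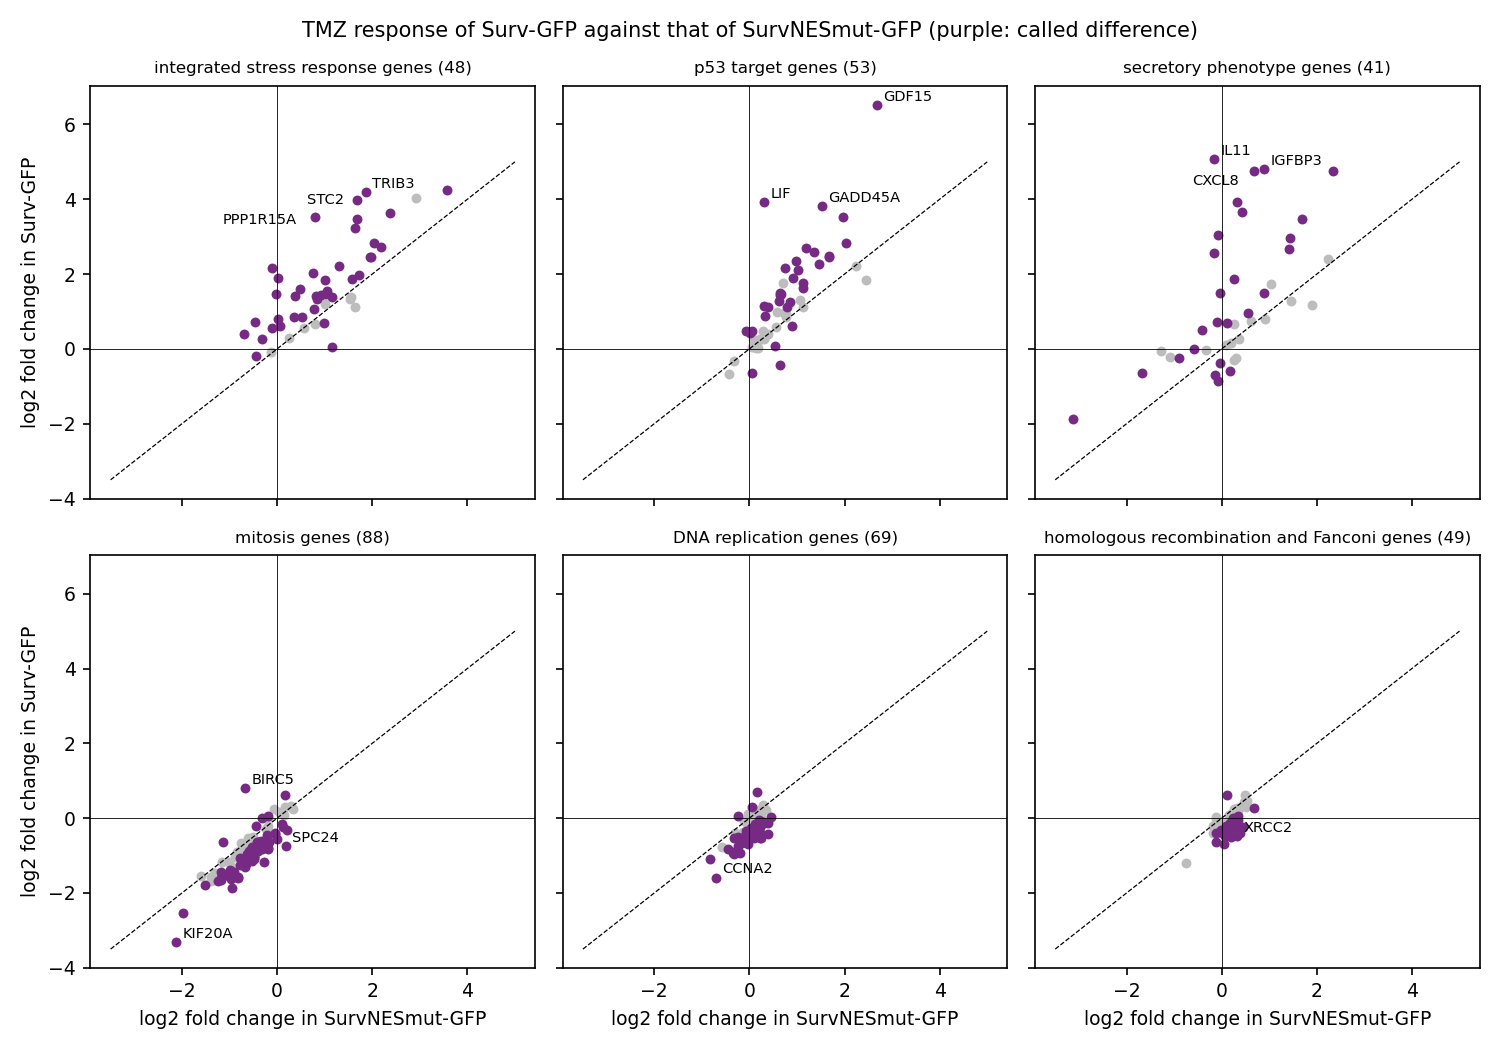
log2 fold change upon TMZ in SurvNESmut-GFP (x axis) and in Surv-GFP (y axis) of the members of 6 gene lists (number tested in brackets). Purple points are genes whose difference between the clones was called and the dashed line marks equal change. Stress response, p53 and secretory genes lie mostly above the line, with GDF15 at 2.67 and 6.53, and replication and recombination genes mostly below it.

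The 5 genes with the smallest p-values for a larger effect in Surv-GFP were LIF, IL11, KLF5, CXCL8 and PPP1R15A. IL11 rose in Surv-GFP from 6.45 and 6.07 to 203 and 218 CPM and stood at 64.5 and 71.7 CPM untreated and 54.3 and 68.1 CPM upon TMZ in SurvNESmut-GFP, a difference of 5.23 ± 0.14 on the log2 scale (adjusted p = 3.9e-13). KLF5, a zinc finger transcription factor, rose from 16.9 and 16.2 to 277 and 271 CPM and stood at 71.1 and 69.1 and 61.5 and 75.8 CPM in the other clone. LIF went from 577 and 532 to 652 and 726 CPM in SurvNESmut-GFP. For these 3 genes both untreated Surv-GFP libraries lay below both untreated SurvNESmut-GFP libraries, so that the larger rise began from a lower level. The same held for GDF15 (77.9 and 64.2 CPM in untreated SurvNESmut-GFP) and CXCL8 (55.3 and 58.5 CPM). On the other side were SEMA5A, SLC1A3, FAM84B, PTCH1 and TMOD2. SLC1A3, a glial glutamate transporter, fell from 13.7 and 13.0 to 2.67 and 4.42 CPM in Surv-GFP and rose from 7.59 and 8.72 to 30.5 and 30.6 CPM in SurvNESmut-GFP (difference -3.82 ± 0.20, adjusted p = 1.1e-09). SEMA5A likewise fell in Surv-GFP and rose from 25.2 and 25.003 to 41.0 and 35.4 CPM in the other clone. PTCH1, the Hedgehog receptor, fell in both, from 131 and 135 to 30.3 and 32.5 CPM in Surv-GFP and from 129 and 124 to 74.2 and 78.9 CPM in SurvNESmut-GFP. FAM84B and TMOD2, a capping protein of actin, fell by 1.03 and 1.11 in Surv-GFP, against log2 fold changes of 0.13 and 0.40 in SurvNESmut-GFP. EXO1 rose by 0.45 in Surv-GFP and 0.53 in SurvNESmut-GFP on the log2 scale, a difference that did not pass (-0.08 ± 0.09, adjusted p = 0.57).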

How the data were processed

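The authors deposited raw read counts per gene symbol for 8 RNA-Seq libraries, and these counts were used as deposited. Per the labels' processing notes, STAR 2.5.0b and Cufflinks 2.2.1 were used on the reads, with no role given. Reads of overlapping or antisense genes cannot be told apart, with counter, annotation, genome build and strand setting not given in the sources used here. Altogether 26364 gene symbols and 2 rows without a gene were listed, and the latter together took between 12.5% and 15.5% of each library's reads and were left out. A further 5 tables held the authors' own fold changes and p-values and were not used.

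Genes with enough reads by edgeR's filterByExpr (14201) were scaled by TMM and fitted with 4 group means over all 8 libraries, which share 1 estimate of the spread, by edgeR's quasi-likelihood F test (edgeR 4.0.16, limma 3.58.1, R 4.3.3). p-values were adjusted by Benjamini-Hochberg over all 14201 genes, with calls at 0.05, and the SE is the absolute log2 fold change divided by the root of the F statistic. CPM uses TMM-scaled library sizes. The TMZ effect of Surv-GFP was TMZ-exposed minus untreated, and the clones were compared by the difference of both TMZ effects. The script was tested on simulated data. The deviations of same-letter libraries from their group means did not correlate over the genes tested (-0.063 and -0.026). This check cannot tell whether the letters were handled as pairs, which the labels do not say, and the main fit used no pairing.

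Named genes were key members of each list, the 3 members that rose and fell most among calls with a mean of at least 5 CPM, the 12 largest rises and falls and the 5 genes of smallest p for the clone difference in each direction, and results of some genes under this rule are not reported here. The members and lists were chosen with earlier results of these data known. Lists share members. Promoters were taken from RefSeq (GRCh38.p14) by symbol or gene synonym, motifs were searched on both strands, and no motif spelling contains another. For secretory phenotype genes under 80% had a promoter, so motif shares are not given. Sequences are shown only for called members with a mean of at least 5 CPM, and none from chromosome 8. Alternatives were DESeq2 1.42.0, other scalings and filters, a replicate term, the 4 Surv-GFP libraries alone and leaving out each library.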

Additional observations from a re-analysis of the deposited data

Results flagged for a closer look

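The TMZ effect differed between the clones by a test of the difference itself (edgeR quasi-likelihood, Benjamini-Hochberg over all genes tested) for 5226 genes, and the named genes among them are given as the log2 fold change in Surv-GFP minus that in SurvNESmut-GFP. The genes of smallest p with a larger value in Surv-GFP were LIF (3.61), IL11 (5.23), KLF5 (4.08), CXCL8 (4.08) and PPP1R15A (2.72), with adjusted p from 1.1e-13 to 1.1e-12. Those with a smaller value in Surv-GFP were SEMA5A (-2.52), SLC1A3 (-3.82), FAM84B (-1.15), PTCH1 (-1.36) and TMOD2 (-1.51), with adjusted p from 1.5e-10 to 5.7e-09. Among the 12 largest rises in Surv-GFP, the difference passed the test for GDF15 (3.85), TRIML2 (3.95), ADM2 (2.53), LURAP1L (3.57), LINC01583 (4.15), IGFBP3 (3.92), IL1A (2.40) and RGS16 (3.67) as well, with adjusted p from 2.8e-11 to 7.6e-06. Among the 12 largest falls, it passed for KIF20A (-1.18), PLEKHS1 (-2.93), KCNJ10 (-1.48), PIF1 (-0.78), MAP2K6 (-2.51), IFIT1 (-1.63), METTL7A (-1.12), SOCS3 (-1.67) and PLK1 (-0.55), with adjusted p from 1e-08 to 0.043. GFRA2 and PRIMA1 were at 0 in all SurvNESmut-GFP libraries, where no TMZ effect can be measured. Each construct is 1 clone, and the part of the clones' different untreated levels in these differences was not tested. Groups of 2 libraries were too small for a check of single libraries that stand apart.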

How the results depend on the processing

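The 8371 genes called for the TMZ effect in Surv-GFP numbered between 6939 (DESeq2) and 8742 (the 4 Surv-GFP libraries alone) over the other settings, and between 7033 and 7339 without 1 Surv-GFP library. The 1487 genes changed at least 2-fold in Surv-GFP numbered between 1345 and 1565, and 683 (439 higher and 244 lower) when tested against a change of 2-fold with glmTreat. The difference of TMZ effects between the clones was called for 5226 genes, and for between 3849 (DESeq2) and 5509 over the other settings. With the replicate letter as a block 8203 genes were called, 1480 by at least 2-fold, and 5074 for the clone difference. With the 4 Surv-GFP libraries alone and the block, 8646 were called. Counted on the sense strand only, the CHR lay in 55.6% of mitosis promoters, the E2F site in 22% of replication promoters, the CARE in 7.5% of stress response promoters and the kappaB motif in 19.2% of NF-kappaB promoters. Of 368 named genes none reversed, and 7 (DESeq2) and between 7 and 17 (without 1 library) lost their call. The median of all genes moved by at most 0.035 on the log2 scale. Replicates number 2 per group and the depth of each library was similar, so the calls rest on the spread between few libraries, and genes under about 1 CPM on few reads.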

Other observations

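Of 6 mesenchymal glioma markers tested, 2 rose, EGFR among them, and 2 fell, and their summed level went from 8010 to 8435 CPM in untreated to 6645 to 7295 CPM in TMZ-exposed Surv-GFP libraries. Of 5 fibroblast markers tested, 4 fell and none rose, against 28.9% and 30.1% of all genes tested. Their sums were 67.6 to 74.2 CPM in untreated and 44.3 to 44.8 CPM in TMZ-exposed libraries.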
